A study of Mus musculus with 9 samples.

Results

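Sterol and fatty acid synthesis was followed through 30 genes, chosen by name and matched by Ensembl identifier, of 56980 identifiers in the deposited table. All 30 were found. They were 18 enzymes that build cholesterol from acetyl-CoA, 5 genes that regulate this branch or carry sterol, and 7 genes of fatty acid synthesis. RNA was taken 24 h into treatment from MH-S, a line of SV40-transformed macrophages that derives from mouse lung alveoli. In the first group, copper oxide nanoparticles (CuO NPs) at 20 µg/ml were given together with TTM at 10 µM. The second group received the nanoparticles alone at the same dose, and the third was the untreated control, with 3 libraries in each group. TTM is not written out in the labels, and in work on copper it commonly means tetrathiomolybdate, a chelator of this metal. TTM was not given without nanoparticles, so an effect of TTM itself and a removal of copper cannot be told apart. Nothing states that the replicates were separate cultures, so p-values cover only the spread between these libraries.

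Cells make cholesterol by joining acetyl-CoA units into mevalonate and then isoprenoids, closing squalene into a ring and trimming that sterol step by step. The branch is switched on by SREBP2, a transcription factor held in the endoplasmic reticulum while sterol is plentiful. SCAP escorts it to the Golgi for cleavage when sterol runs low, and INSIG proteins hold SCAP back. Fatty acid synthesis starts from the same acetyl-CoA and is driven mainly by the related factor SREBP1. In macrophages these pathways set membrane cholesterol and the supply of oxysterols.

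Many genes of these branches are known SREBP targets, so the promoters of 6 members are shown for letters that SREBP and its usual partners are known to bind. They are the 150 bases before the start site of each gene in RefSeq's mouse build GRCm38.p6, 5′ to 3′ on the gene's strand. Capitals mark matches on either strand to the sterol regulatory element core CACNCCAC, the E-box CACGTG and the CCAAT box, and no matches overlap there. Hmgcs1, Mvd, Insig1, Acss2 and Srebf2 rose with TTM, and Hsd17b7 was lower than in controls with and without it.
Hmgcs1: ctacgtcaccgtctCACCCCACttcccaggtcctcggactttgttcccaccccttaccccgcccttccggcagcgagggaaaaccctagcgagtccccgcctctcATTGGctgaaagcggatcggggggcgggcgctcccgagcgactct
Mvd: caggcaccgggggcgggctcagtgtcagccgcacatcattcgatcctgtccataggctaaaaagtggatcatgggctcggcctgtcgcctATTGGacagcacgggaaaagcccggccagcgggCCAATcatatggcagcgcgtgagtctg
Insig1: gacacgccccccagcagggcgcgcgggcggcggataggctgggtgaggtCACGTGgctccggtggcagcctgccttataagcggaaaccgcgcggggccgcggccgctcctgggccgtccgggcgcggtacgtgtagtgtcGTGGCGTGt
Acss2: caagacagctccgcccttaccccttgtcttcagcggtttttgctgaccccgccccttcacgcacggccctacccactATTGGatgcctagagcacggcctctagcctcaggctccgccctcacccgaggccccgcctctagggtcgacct
Srebf2: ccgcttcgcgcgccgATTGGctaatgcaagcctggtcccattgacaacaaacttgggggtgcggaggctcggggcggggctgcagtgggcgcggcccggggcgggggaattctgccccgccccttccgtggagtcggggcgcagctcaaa
Hsd17b7: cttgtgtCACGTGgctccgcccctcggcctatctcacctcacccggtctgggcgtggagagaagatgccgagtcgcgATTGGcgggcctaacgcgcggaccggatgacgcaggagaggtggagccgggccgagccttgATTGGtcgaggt
The windows lie at chr13:119690201-119690350 on the plus strand for Hmgcs1, chr8:122443423-122443572 on the minus strand for Mvd, chr5:28071262-28071411 on the plus strand for Insig1, chr2:155517893-155518042 on the plus strand for Acss2, chr15:82147119-82147268 on the plus strand for Srebf2, and chr1:169969206-169969355 on the minus strand for Hsd17b7. Promoters of 25 members were in the table, and those of Fads1, Fdft1, Fdps, Sqle and Stard4 were not used here. The full windows of 300 bases ran from 250 bases before the start to 50 after it. In these, CCAAT was found for 20 of 25 members, or 80%, against 41.1% of 27025 genes with a promoter. Those genes were taken whether or not they were expressed here. It was found for 14 of 15 sterol enzymes and 3 of 6 fatty acid genes. CACNCCAC was found for 3 members, Acat2, Hmgcs1 and Insig1, or 12% against 7.12% of all genes. CACGTG was found for 5 members, Dhcr7, Hsd17b7, Insig1, Sc5d and Scap, or 20% against 8.09%. A match is a string of letters and not a measured binding site.

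Expression was deposited as TPM, a share of all transcripts in the library and thus a level corrected for transcript length, so levels can be set side by side between genes. A gene was tested when it reached 1 TPM in 3 of the 9 libraries, which held for 12904 genes and for 29 of the 30 members. The exception was Elovl6, which elongates fatty acids and was listed at 0 TPM in all 9 libraries. Log2 fold changes are differences of log2(TPM + 1), fitted with limma over all tested genes, and a gene was called at a Benjamini-Hochberg adjusted p below 0.05. Of 10 macrophage markers, 9 were tested, and their sum was 2112 to 2197 TPM with CuO NPs + TTM, 1769 to 1812 TPM with CuO NPs and 3457 to 3535 TPM in controls. Of 8 alveolar macrophage markers 4 were tested, and the sum of all 8 was 136 to 161 TPM with CuO NPs + TTM, 152 to 154 TPM with CuO NPs and 409.9 to 447 TPM in controls. Of these, Car4 and Ear2 were at 0 and Siglecf and Pparg reached at most 0.09 and 0.22 TPM. Both sums cover opposite changes with TTM against CuO NPs. Of the tested macrophage markers 5 were called higher and 3 lower, namely Csf1r, Cd14 and Spi1. Of the tested alveolar ones 2 were higher, Fabp4 and Itgax, and 1 lower, Chil3. Of all tested genes 34.6% were higher and 18.5% lower there. Markers of fibroblasts and epithelium summed to at most 1.22 TPM in every library. Endothelial ones, nearly all of it Vwf, summed to 11.6 to 14.3 TPM with CuO NPs + TTM, 9.70 to 11.3 TPM with CuO NPs and 8.26 to 12.0 TPM in controls. Lymphocyte markers summed to 1.67 to 3.24 TPM with CuO NPs + TTM, 0.19 to 1.19 TPM with CuO NPs and 0.54 to 0.79 TPM in controls. Only Cd3e of these was tested, and it was called higher with TTM against CuO NPs (1.31). Granulocyte markers, mostly S100a8 and S100a9, summed to 63.8 to 70.7 TPM with CuO NPs + TTM, 199 to 220.2 TPM with CuO NPs and 383 to 400.1 TPM in controls. This sum covers opposite changes with CuO NPs against control. S100a8 (-0.80) and S100a9 (-1.73) were called lower there, and Ly6g, at most 3.06 TPM, was called higher (1.53). Of all tested genes 30.1% were lower and 11.8% higher in that comparison. The part of these markers in the results was not tested, and in RNA from whole cultures fewer cells of a type and less RNA per cell cannot be told apart. Mitochondrially encoded RNA took 11.4 to 13.4% of TPM with CuO NPs + TTM, 15.7 to 16.1% with CuO NPs and 12.6 to 13.5% in controls.

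With TTM beside the nanoparticles, the sterol branch was higher than with nanoparticles alone almost throughout, and for most enzymes higher than in untreated cells. Of 18 sterol enzymes, 16 rose against CuO NPs alone and 0 fell, and Hsd17b7 and Ebp were not called. Of 29 members tested, 25 were called in either direction, against 53.1% of all tested genes. Of these 24 rose and 1 fell, against 34.6% of all tested genes higher and 18.5% lower. The libraries of the 2 groups did not overlap for 24 members (59.4% of all tested genes), of which 23 were higher (38.2%) and 1 lower (21.2%). The median log2 fold change was 0.69 for the sterol enzymes, against 0.12 for all genes tested. Summed over the 18 enzymes, the level was 973 ± 65.2 TPM with CuO NPs + TTM, 592 ± 9.26 TPM with CuO NPs and 697 ± 20.4 TPM in controls (SD, n = 3 per group). The count of sterol enzymes that rose was 15 with median-of-ratios scaling, 16 with TPM rescaled without mitochondrially encoded genes and 14 with each library centred on its median gene. The share of all genes called higher under these scalings was 26.5%, 29.7% and 21.2%.

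**Figure D1:**
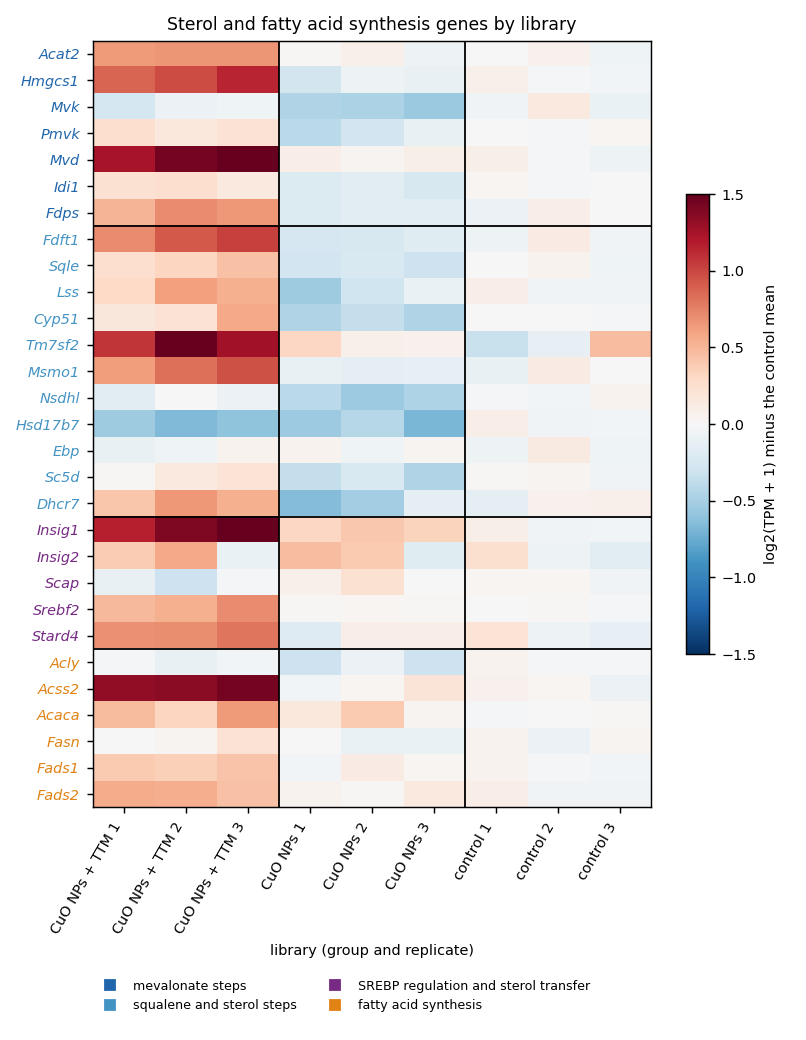
Colour shows log2(TPM + 1) of each tested member (rows, by branch) in each of the 9 libraries (columns), minus the mean of the 3 controls. The 3 libraries with CuO NPs + TTM are red for most sterol genes, for Insig1 and for Acss2, and Hsd17b7 is blue in all 6 libraries with CuO NPs.

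The mevalonate steps opened the pathway, and all 7 of their genes rose with TTM against nanoparticles alone. Hmgcs1, the synthase that joins acetoacetyl-CoA and acetyl-CoA, had 61.3, 66.4 and 74.1 TPM with CuO NPs + TTM, against 27.1, 31.3 and 30.7 TPM with CuO NPs alone and 34.9, 32.3 and 32.1 TPM in controls. All 3 TTM libraries lay far above the other 6, with a log2 fold change against CuO NPs of 1.15 (SE 0.082, adjusted p = 6.64e-06) and against controls of 1.00 (SE 0.082, adjusted p = 8.95e-06). Mvd, the decarboxylase that makes isopentenyl diphosphate, had 55.8, 64.6 and 78.2 TPM with CuO NPs + TTM, against 24.9, 23.9 and 24.6 TPM with CuO NPs alone and 24.7, 22.9 and 22.0 TPM in controls. It had the largest difference of any sterol enzyme, 1.39 (SE 0.106, adjusted p = 9.47e-06) against CuO NPs, while CuO NPs and control libraries overlapped. Fdps, which makes farnesyl diphosphate, the branch point to sterols and prenylated proteins, had 140.4, 162 and 155 TPM with CuO NPs + TTM, against 85.1, 87.6 and 88.1 TPM with CuO NPs alone and 92.7, 105 and 98.2 TPM in controls. Its TTM libraries lay above all others, and its difference from CuO NPs was 0.80 (SE 0.064, adjusted p = 1.23e-05). Acat2, the thiolase that makes acetoacetyl-CoA, had 56.7, 57.4 and 57.8 TPM with CuO NPs + TTM, against 36.5, 38.0 and 34.1 TPM with CuO NPs alone and 36.0, 37.8 and 34.4 TPM in controls. The CuO NPs and control libraries overlapped, and the TTM libraries differed from CuO NPs by 0.65 (SE 0.057, adjusted p = 2.03e-05).

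The other steps of this stage moved less. Mvk, which phosphorylates mevalonate, had 25.9, 29.5 and 29.9 TPM with CuO NPs + TTM, against 22.7, 22.3 and 20.9 TPM with CuO NPs alone and 30.2, 34.9 and 29.2 TPM in controls. Its CuO NPs libraries were the lowest, and its TTM libraries overlapped the controls. Its rise with TTM, 0.36 (SE 0.083, adjusted p = 0.00534), was not called with median-of-ratios scaling (0.23, adjusted p = 0.0588) or with libraries centred on their median gene (0.17). Pmvk, the next kinase, had 39.4, 37.0 and 38.6 TPM with CuO NPs + TTM, against 24.6, 26.8 and 30.4 TPM with CuO NPs alone and 32.8, 32.5 and 33.6 TPM in controls. Its TTM libraries were above all others, with 0.48 (SE 0.075, adjusted p = 0.000534) against CuO NPs. The smaller rise against controls, 0.21 (SE 0.075, adjusted p = 0.0354), lost its call without any 1 of the 6 libraries compared (log2 fold changes of 0.19 to 0.24). Idi1, the isomerase of isopentenyl diphosphate, had 58.8, 59.7 and 55.3 TPM with CuO NPs + TTM, against 43.3, 44.3 and 42.3 TPM with CuO NPs alone and 51.1, 49.1 and 50.1 TPM in controls. The 3 groups did not overlap, and it was higher with TTM than with CuO NPs by 0.41 (SE 0.049, adjusted p = 0.000112) on the log2 scale.

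From farnesyl diphosphate onward, 9 of 11 genes rose with TTM against CuO NPs alone. Sqle, the epoxidase that is a slow step of the pathway, had the highest level of the sterol enzymes in each group. It had 159.7, 168 and 181 TPM with CuO NPs + TTM, against 109, 114 and 108 TPM with CuO NPs alone and 134, 139 and 128 TPM in controls, 3 groups without overlap, with TTM highest. The difference from CuO NPs was 0.62 (SE 0.056, adjusted p = 2.45e-05). Fdft1, squalene synthase, had 34.5, 40.2 and 43.5 TPM with CuO NPs + TTM, against 17.3, 17.4 and 18.3 TPM with CuO NPs alone and 19.7, 22.8 and 20.1 TPM in controls. It was 1.11 (SE 0.090, adjusted p = 1.31e-05) higher on the log2 scale than with CuO NPs. Its exons overlap on the opposite strand those of Ctsb, a cathepsin at 588 to 622 TPM with CuO NPs + TTM, 386 to 410 TPM with CuO NPs and 727 to 808 TPM in controls. The sources used here do not state if counting used the strand, so the division of reads between Fdft1 and Ctsb is uncertain.

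Lss, which closes the sterol ring to lanosterol, had 24.0, 30.2 and 28.3 TPM with CuO NPs + TTM, against 13.0, 15.5 and 18.0 TPM with CuO NPs alone and 20.8, 18.7 and 18.6 TPM in controls. Its TTM libraries were the highest of the 9, at 0.79 (SE 0.120, adjusted p = 0.000461) against CuO NPs. Cyp51, the lanosterol demethylase, had 44.4, 45.8 and 58.5 TPM with CuO NPs + TTM, against 28.5, 30.3 and 28.5 TPM with CuO NPs alone and 39.5, 39.6 and 38.7 TPM in controls, with no overlap between groups and 0.74 (SE 0.093, adjusted p = 0.000163). It shares exons on the opposite strand with Akap9, which stayed at 8.38 to 13.4 TPM in all libraries, and the division of reads between them is likewise uncertain. Tm7sf2, a sterol reductase, had 7.87, 10.9 and 9.08 TPM with CuO NPs + TTM, against 4.24, 3.46 and 3.43 TPM with CuO NPs alone and 2.34, 2.87 and 4.84 TPM in controls. It was the lowest of the tested members, with TTM libraries above all others at 1.12 (SE 0.200, adjusted p = 0.0012). Vps51 overlaps it on the same strand with 54.2 to 55.6 TPM with CuO NPs + TTM, 47.7 to 50.0 TPM with CuO NPs and 37.2 to 42.8 TPM in controls, so the Tm7sf2 level is uncertain.

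Msmo1, the methylsterol oxidase, had 56.8, 65.4 and 71.5 TPM with CuO NPs + TTM, against 33.7, 33.2 and 33.4 TPM with CuO NPs alone and 33.7, 39.7 and 36.3 TPM in controls. The CuO NPs and control libraries overlapped, while TTM was above them by 0.92 (SE 0.087, adjusted p = 2.92e-05) against CuO NPs. Dhcr7, which makes cholesterol from 7-dehydrocholesterol, had 37.3, 44.2 and 40.7 TPM with CuO NPs + TTM, against 17.3, 19.0 and 25.0 TPM with CuO NPs alone and 25.1, 29.1 and 29.3 TPM in controls. TTM was the highest group, at 0.97 (SE 0.127, adjusted p = 0.000193) against CuO NPs. Sc5d, the sterol desaturase just before it, had 22.7, 24.8 and 26.0 TPM with CuO NPs + TTM, against 17.3, 19.0 and 16.1 TPM with CuO NPs alone and 22.7, 23.0 and 21.5 TPM in controls. It rose with TTM by 0.47 (SE 0.078, adjusted p = 0.000804) on the log2 scale but overlapped the controls. Nsdhl, which removes the carboxyl group left by demethylation, had 26.3, 29.5 and 27.9 TPM with CuO NPs + TTM, against 22.3, 20.1 and 21.3 TPM with CuO NPs alone and 29.4, 29.0 and 30.9 TPM in controls. Its rise against CuO NPs, 0.38 (SE 0.065, adjusted p = 0.000977), also reached no further than the control range, and was not called when libraries were centred on their median gene (0.19, adjusted p = 0.0791).

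A pair of sterol enzymes did not follow. Hsd17b7, the ketoreductase that acts with Nsdhl in demethylation, had 11.4, 10.4 and 10.9 TPM with CuO NPs + TTM, against 11.3, 12.4 and 10.2 TPM with CuO NPs alone and 18.3, 16.4 and 16.5 TPM in controls. All 6 libraries with nanoparticles lay below all 3 controls, and TTM made no called difference (-0.05, 95% interval -0.24 to 0.14). Against controls its TTM libraries fell by 0.60 (SE 0.086, adjusted p = 0.000267) on the log2 scale, the only member called lower there. With libraries centred on their median gene it was also called lower with TTM than with CuO NPs (-0.24, adjusted p = 0.0144). Ebp, the sterol isomerase, had 38.6, 39.7 and 43.3 TPM with CuO NPs + TTM, against 43.4, 39.7 and 42.9 TPM with CuO NPs alone and 39.6, 45.9 and 39.9 TPM in controls. The groups overlapped in all comparisons, and its difference between CuO NPs + TTM and CuO NPs had a 95% interval of -0.22 to 0.11.

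**Figure D2:**
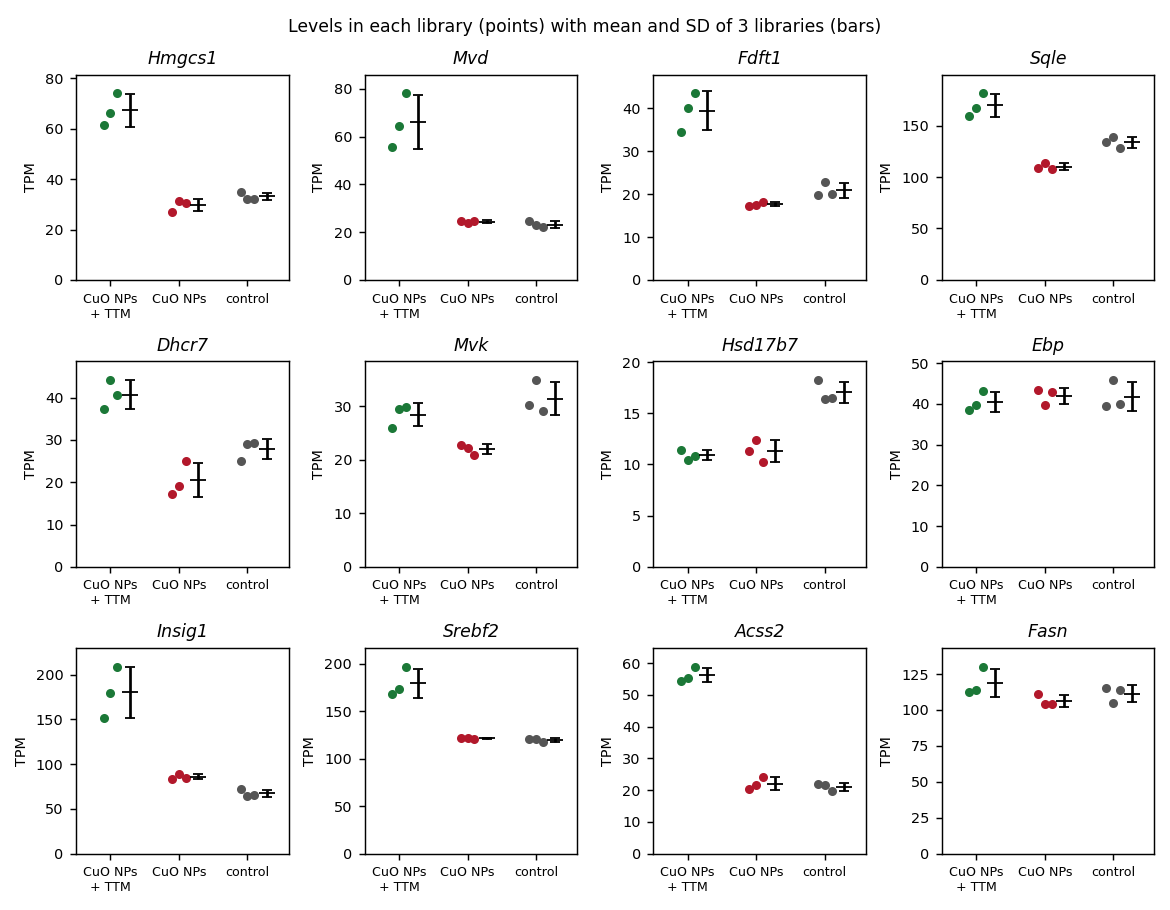
TPM of 12 members in each library (points) with the mean and SD of 3 libraries (bars), TTM at the left. Hmgcs1, Mvd, Fdft1, Insig1, Srebf2 and Acss2 are highest with CuO NPs + TTM, Mvk is near the control level there, Hsd17b7 stays below it, and Ebp overlaps throughout.

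Of the 5 genes that regulate the branch or carry sterol, 3 rose with TTM against CuO NPs and Scap fell. Of all tested genes 34.6% rose and 18.5% fell there. Insig1, the retention protein that is itself a strong SREBP target, had 152, 179.8 and 209 TPM with CuO NPs + TTM, against 83.6, 89.1 and 85.1 TPM with CuO NPs alone and 71.9, 65.0 and 65.3 TPM in controls. The 3 groups did not overlap, and with TTM it was higher by 1.05 (SE 0.099, adjusted p = 2.98e-05) against CuO NPs and by 1.39 (SE 0.099, adjusted p = 3.8e-06) against controls, both on the log2 scale. Its paralogue Insig2, which does not depend on SREBP2 in the same way, had 27.5, 31.4 and 19.5 TPM with CuO NPs + TTM, against 29.4, 27.9 and 18.4 TPM with CuO NPs alone and 24.9, 19.8 and 18.7 TPM in controls. Those libraries overlapped in every comparison, and the difference between CuO NPs + TTM and CuO NPs had a wide 95% interval of -0.41 to 0.51. Srebf2, which encodes SREBP2 and is a target of its own product, had 168, 173 and 197 TPM with CuO NPs + TTM, against 121, 122 and 121 TPM with CuO NPs alone and 120.4, 121 and 117 TPM in controls. Its CuO NPs and control libraries were nearly equal, and TTM was higher than CuO NPs by 0.55 (SE 0.058, adjusted p = 5.08e-05). Stard4, a cytosolic carrier of sterol, had 21.2, 21.3 and 23.1 TPM with CuO NPs + TTM, against 11.0, 13.8 and 13.8 TPM with CuO NPs alone and 14.9, 12.0 and 11.6 TPM in controls, with TTM above both other groups and 0.73 (SE 0.111, adjusted p = 0.00049) against CuO NPs. Scap, the escort, had 35.6, 30.9 and 38.1 TPM with CuO NPs + TTM, against 40.6, 45.5 and 38.5 TPM with CuO NPs alone and 39.4, 39.3 and 37.0 TPM in controls. Its TTM libraries lay below those with CuO NPs but overlapped the controls. The fall, -0.25 (SE 0.086, adjusted p = 0.0357), lost its call without CuO NPs + TTM replicate 1 (-0.26), CuO NPs + TTM replicate 2 (-0.16), CuO NPs replicate 1 (-0.26) or CuO NPs replicate 2 (-0.18), and with the replicate number as a block (adjusted p = 0.069).

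The fatty acid branch was more mixed. Of its 6 tested genes, 5 rose with TTM against CuO NPs, with a median log2 fold change of 0.32, or 0.20 above the median of all genes, against 0.58 above it for the sterol enzymes. Acss2, which makes acetyl-CoA from acetate for either branch, stood apart from the others. It had 54.5, 55.3 and 58.8 TPM with CuO NPs + TTM, against 20.3, 21.5 and 24.3 TPM with CuO NPs alone and 22.0, 21.5 and 19.7 TPM in controls, and its difference from CuO NPs was 1.32 (SE 0.076, adjusted p = 2.43e-06). It shares exons on the opposite strand with Gss, at 60.9 to 70.3 TPM with CuO NPs + TTM, 59.6 to 65.2 TPM with CuO NPs and 41.1 to 43.2 TPM in controls, so the Acss2 level is uncertain too. The desaturases rose less. Fads1 had 109, 106 and 111 TPM with CuO NPs + TTM, against 80.0, 89.6 and 84.0 TPM with CuO NPs alone and 85.5, 81.5 and 79.9 TPM in controls, with a difference of 0.36 (SE 0.052, adjusted p = 0.000401) from CuO NPs. Fads2 had 23.8, 23.6 and 21.9 TPM with CuO NPs + TTM, against 16.6, 16.0 and 17.7 TPM with CuO NPs alone and 17.1, 15.3 and 15.3 TPM in controls, with a difference of 0.44 (SE 0.071, adjusted p = 0.000666). In either gene the TTM libraries lay above all 6 others.

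The core of fatty acid synthesis moved little with TTM against CuO NPs. Fasn, the fatty acid synthase itself, had 112, 114 and 129.9 TPM with CuO NPs + TTM, against 111, 104 and 104 TPM with CuO NPs alone and 115, 105 and 114 TPM in controls. Its TTM libraries lay above those with CuO NPs without a call (0.16, 95% interval 0.01 to 0.30, adjusted p = 0.073). It was called without CuO NPs + TTM replicate 1 (0.19), and its sign turned with libraries centred on their median gene (-0.03). Acaca, which makes malonyl-CoA, had 32.8, 29.5 and 36.8 TPM with CuO NPs + TTM, against 26.2, 31.1 and 24.1 TPM with CuO NPs alone and 23.1, 23.4 and 23.7 TPM in controls. Its TTM libraries lay above all controls, by 0.47 (SE 0.102, adjusted p = 0.00315) on the log2 scale. The TTM and CuO NPs libraries overlapped, and the difference of 0.28 (SE 0.102, adjusted p = 0.044) lost its call under median-of-ratios scaling (0.15) and when any 1 library other than CuO NPs + TTM replicate 2 or CuO NPs replicate 2 was left out (0.20 to 0.28). Acly, which makes cytosolic acetyl-CoA from citrate, had 60.4, 57.3 and 60.2 TPM with CuO NPs + TTM, against 49.7, 57.9 and 49.6 TPM with CuO NPs alone and 64.1, 60.6 and 60.6 TPM in controls. Its difference of 0.18 (SE 0.066, adjusted p = 0.0435) was lost under median-of-ratios scaling (0.05), turned sign with centring (-0.01), and was lost when any 1 library but CuO NPs replicate 2 was left out (0.14 to 0.20). Under each of the 3 other scalings 3 fatty acid genes were called, Acss2, Fads1 and Fads2.

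**Figure D3:**
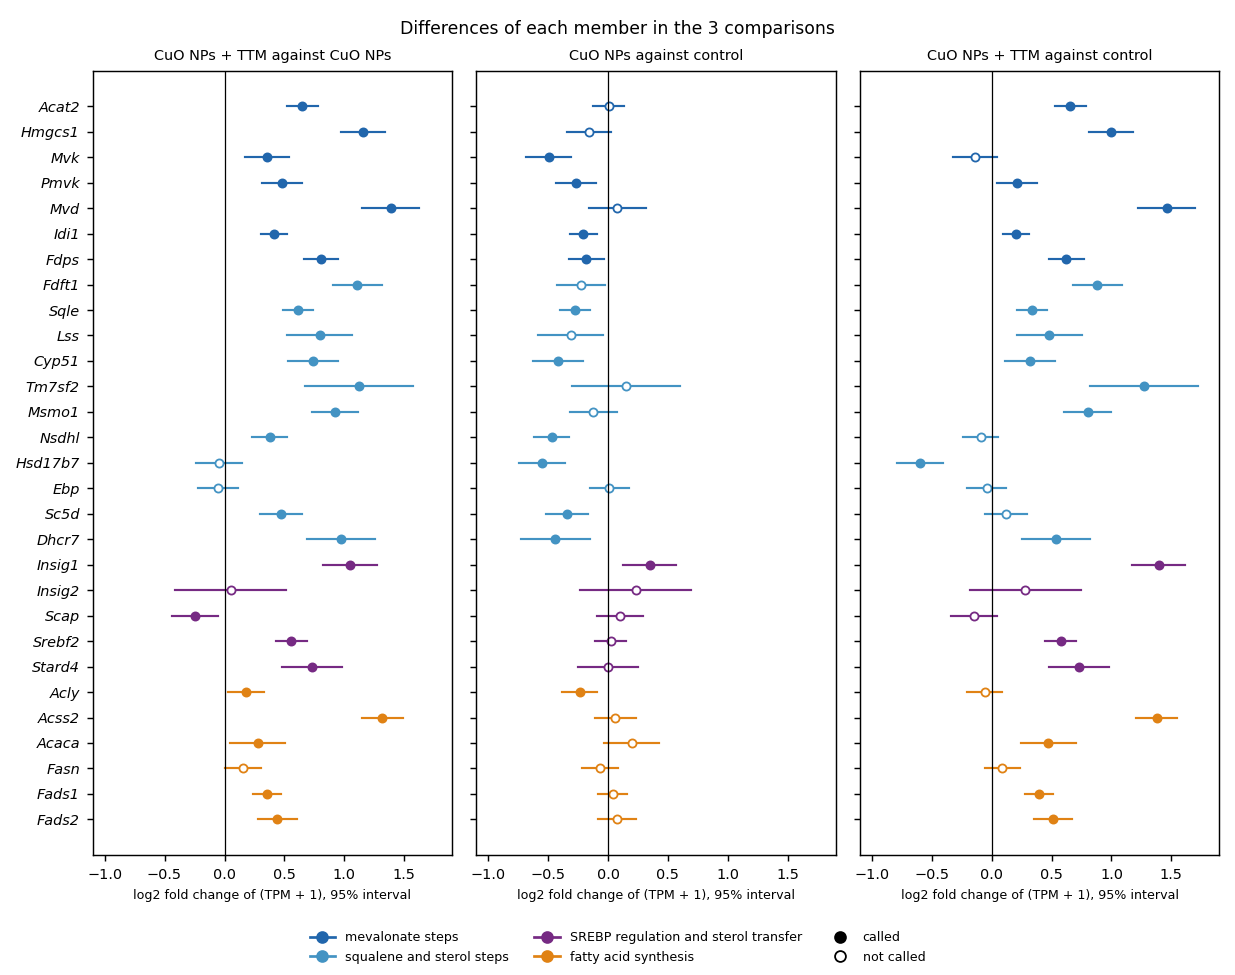
Log2 fold change of (TPM + 1) for each tested member with its 95% interval, in the 3 comparisons, filled where called. Mvd and Acss2 lie farthest right with TTM against CuO NPs, Hsd17b7 and Ebp lie at 0 there, and most sterol enzymes lie left of 0 with CuO NPs against control.

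With nanoparticles alone, 10 of 18 sterol enzymes were called lower than in controls, a count that depended on the scaling. Most fatty acid genes had no call with TPM scaling, and their calls depended on the scaling too. Of 29 members tested 12 were called, against 41.9% of all tested genes, 11 of them lower and 1 higher. The groups did not overlap for 16 members (53% of all tested genes), of which 14 were lower (37.5%) and 2 higher (15.5%). Pooled over both directions, the 12 called and the 16 not overlapping lie near the background of all genes. Split by direction with TPM scaling, the members' share was above that of all genes for lower and below it for higher. Of the sterol enzymes 10 were called lower and 0 higher, against 30.1% of all tested genes lower and 11.8% higher. The median gene had -0.12, so the sterol median of -0.25 stood 0.13 below it. With median-of-ratios scaling, which moves the median gene to -0.01, 5 sterol enzymes were called lower, Mvk, Cyp51, Nsdhl, Hsd17b7 and Sc5d, against 20.4% of all genes. With libraries centred on their median gene 3 were, Mvk, Nsdhl and Hsd17b7, and Acat2 was called higher (0.19), against 16% of all genes lower and 24.3% higher, so that the sterol count is then near the background. Hsd17b7 fell by 0.55 (SE 0.086, adjusted p = 0.000741) on the log2 scale, Mvk by 0.49 (SE 0.083, adjusted p = 0.00118) and Nsdhl by 0.47 (SE 0.065, adjusted p = 0.000373), and these 3 were called under all 4 scalings. Cyp51 differed by -0.42 (SE 0.093, adjusted p = 0.00573) and Sc5d by -0.34 (SE 0.078, adjusted p = 0.00624) with TPM scaling.

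The other 5 called lower, Pmvk, Idi1, Fdps, Sqle and Dhcr7, had log2 fold changes of -0.44 to -0.18 with TPM scaling, and all lost their calls under median-of-ratios scaling. Fdps, at adjusted p = 0.0476, also lost it without any 1 of CuO NPs + TTM replicate 3, CuO NPs replicates 1, 2 and 3, and control replicates 2 and 3 (-0.13 to -0.19). Dhcr7 lost it without control replicate 2 or 3 (-0.41 and -0.40) or CuO NPs replicate 1 or 2 (-0.33 and -0.40), and Pmvk without control replicate 3 (-0.26) or CuO NPs replicate 1 (-0.20). Lss had -0.31 and was called without CuO NPs replicate 3 (-0.42) or CuO NPs + TTM replicate 1, and Fdft1 had -0.23 and was called without CuO NPs + TTM replicate 1. Leaving out CuO NPs replicate 1 left 7 members called lower of 29, where 24.6% of all genes were, against 11 with all libraries, where 30.1% were. Hmgcs1, Mvd, Acat2, Msmo1, Ebp and Tm7sf2 were not called, with values of -0.16 to 0.15.

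Insig1 was the 1 member called higher with nanoparticles alone, at 0.35 (SE 0.099, adjusted p = 0.0189). That call held with median-of-ratios scaling (0.48) and was lost without CuO NPs replicate 2 (0.32), control replicate 2 (0.32) or control replicate 3 (0.33). Srebf2, Scap, Insig2 and Stard4 were not called, with 0.00 to 0.23. Scap was called higher with median-of-ratios scaling (0.23, adjusted p = 0.0421) and with centring (0.28), and Srebf2 with centring (0.20). In the fatty acid branch Acly was called lower, at -0.24 (SE 0.066, adjusted p = 0.0168), and lost that call with median-of-ratios scaling (-0.11), without control replicate 1 (-0.21), or without CuO NPs replicate 1 or 3 (-0.20 in each case). The other 5 had -0.07 to 0.20 and no call. With median-of-ratios scaling Acaca, Fads1 and Fads2 were called higher, at 0.33, 0.17 and 0.20, where 19.6% of all tested genes were. With centring Acaca (0.38), Acss2 (0.24), Fads1 (0.22) and Fads2 (0.25) were called higher, where 24.3% of all tested genes were.

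Compared with untreated cells, the cells given CuO NPs + TTM had more RNA of most members. Of 29 tested 21 were called, against 55.5% of all tested genes. Of these 20 were higher and 1 lower, against 27.3% and 28.2% of all tested genes, and the median gene had 0.00. The groups did not overlap for 22 members (63.1% of all tested genes), of which 20 were higher (31.3%) and 2 lower (31.9%). Of the sterol enzymes 13 of 18 rose, with a median of 0.41, and of the fatty acid genes 4 of 6, with a median of 0.43. Mvd reached 66.2 ± 11.3 TPM against 23.2 ± 1.36 TPM in controls, a log2 fold change of 1.46 (SE 0.106, adjusted p = 4.31e-06). Acss2 reached 56.2 ± 2.27 TPM against 21.1 ± 1.21 TPM, or 1.38 (SE 0.076, adjusted p = 8.09e-07). Tm7sf2 reached 9.29 ± 1.54 TPM against 3.35 ± 1.32 TPM, or 1.27 (SE 0.200, adjusted p = 0.00049). The smallest called rises were those of Idi1 (0.21), Pmvk (0.21), Cyp51 (0.32), Sqle (0.34), Fads1 (0.39) and Acaca (0.47). Without CuO NPs + TTM replicate 3 the Cyp51 value was 0.20, and it was still called. Mvk (-0.14), Nsdhl (-0.09), Sc5d (0.12), Ebp (-0.04), Acly (-0.06), Fasn (0.09), Insig2 (0.28) and Scap (-0.15) were not called. These 3 comparisons share libraries, so their values are set side by side and not counted as support for each other.

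Set branch against branch, the sterol median exceeded the fatty acid median by 0.38 with TTM against CuO NPs, was 0.30 below it with CuO NPs against control, and differed from it by -0.02 with CuO NPs + TTM against control. In each library the median level of the fatty acid genes was also taken from that of the sterol enzymes, on the log scale. This gap in level varied by an SD of 0.113 between libraries of a group. It is a spread between libraries and not an error of the differences in fold change above, for which none was computed. No test was made of a list of genes.

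**Figure D4:**
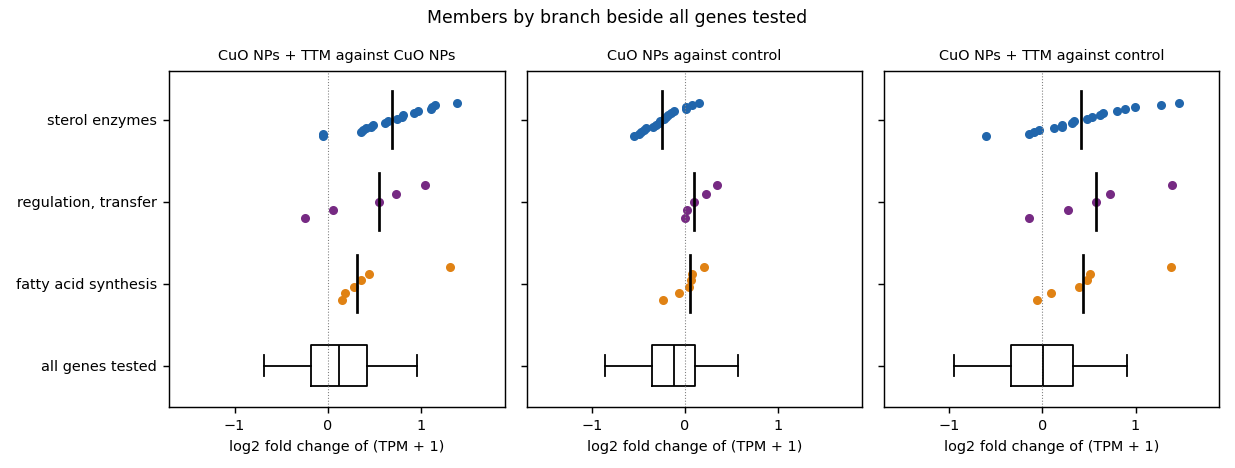
Log2 fold changes of (TPM + 1) of single members (points) by branch, with branch medians (black lines), beside all 12904 genes tested (box from the lower to the upper quartile with the median, whiskers from the 5th to the 95th percentile). The sterol median lies at 0.69 in the left panel and at -0.25 in the middle one, and in the right panel the sterol and fatty acid medians are 0.41 and 0.43.

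Libraries of a group were not alike in these genes. Among the 3 libraries with CuO NPs + TTM, replicate 1 was the lowest for 20 of 29 members and replicate 3 the highest for 18. Mitochondrially encoded RNA took 13.4% of TPM in replicate 1, 12.0% in replicate 2 and 11.4% in replicate 3, and its part in this order was not tested. Leaving out any 1 library left 22 to 24 members called higher against CuO NPs, where 30.3% to 34.7% of all tested genes were.

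Genes next to the pathway were read from lists chosen by name. The counts of these short lists stand beside shares of all tested genes of 34.6% higher and 18.5% lower with TTM against CuO NPs, and 11.8% higher and 30.1% lower with CuO NPs against control. Of 7 genes that cleave SREBP or direct sterol-regulated degradation, 4 rose with TTM against CuO NPs and 0 fell. Rnf145, a ubiquitin ligase of the endoplasmic reticulum tied to sterol sensing, had 34.9, 40.1 and 40.0 TPM with CuO NPs + TTM, against 23.9, 27.2 and 23.8 TPM with CuO NPs alone and 27.4, 27.9 and 26.5 TPM in controls, a difference of 0.60 (SE 0.076, adjusted p = 0.000162). Rnf139 (0.31) and Mbtps1, the first protease of SREBP (0.31), were called too, but not with libraries centred on their median gene (0.13 and 0.12). With nanoparticles alone 4 of the 7 fell, among them Erlin2 (-0.52), Rnf139 (-0.35) and Erlin1 (-0.29, not called with centring, -0.11). With CuO NPs + TTM against controls 2 rose and 1 fell, near the 27.3% and 28.2% of all tested genes. Erlin2 was lower (-0.48), and Rnf145 (0.47) and Mbtps1 (0.25) were higher. The Mbtps1 call was lost without CuO NPs + TTM replicate 2 (0.21) or control replicate 3 (0.18).

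Among 8 genes that use isoprenoids for other products, 5 rose and 1 fell with TTM against CuO NPs. Coq2, which attaches the tail of coenzyme Q, had 14.5, 14.6 and 15.3 TPM with CuO NPs + TTM, against 8.30, 6.52 and 7.57 TPM with CuO NPs alone and 10.8, 12.2 and 11.5 TPM in controls. It was the lowest with CuO NPs and the highest with TTM, at 0.91 (SE 0.091, adjusted p = 4.33e-05). Pdss1, which builds that tail, had 13.3, 11.2 and 11.0 TPM with CuO NPs + TTM, against 19.0, 17.5 and 19.5 TPM with CuO NPs alone and 28.8, 27.9 and 28.6 TPM in controls, without overlap and lowest with TTM (-0.62, SE 0.079, adjusted p = 0.000174). Icmt, the methyltransferase of prenylated proteins, rose by 0.42 on the log2 scale. Against controls, CuO NPs alone gave 0 higher and 3 of 8 lower, near the 30.1% of all tested genes, Pdss1 (-0.58), Coq2 (-0.57) and Nus1, a subunit of dolichol synthesis (-0.52). With CuO NPs + TTM against controls Pdss1 had -1.20, Icmt 0.40 and Coq2 0.34, all called.

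Sterol transport moved by gene. Of 8 genes, 4 rose and 0 fell with TTM against CuO NPs, where 34.6% of all tested genes rose and 18.5% fell. Gramd1a, which carries plasma membrane cholesterol to the endoplasmic reticulum, had 43.9, 39.8 and 50.3 TPM with CuO NPs + TTM, against 15.1, 16.7 and 15.5 TPM with CuO NPs alone and 27.1, 20.7 and 23.8 TPM in controls. It differed by 1.44 (SE 0.109, adjusted p = 8.73e-06), and the groups did not overlap. Npc2, which hands cholesterol out of the lysosome, had 126, 127 and 137 TPM with CuO NPs + TTM, against 82.2, 84.9 and 85.6 TPM with CuO NPs alone and 116, 113 and 107 TPM in controls, a difference of 0.62 (SE 0.050, adjusted p = 1.23e-05). Gramd1b had 19.7, 17.8 and 18.7 TPM with CuO NPs + TTM, against 11.6, 16.1 and 13.0 TPM with CuO NPs alone and 29.9, 27.1 and 27.3 TPM in controls, between the other groups with TTM (0.45, SE 0.107, adjusted p = 0.00597). With CuO NPs alone 5 fell and 1 rose, where 30.1% of all tested genes fell and 11.8% rose, and the largest falls were those of Gramd1b (-1.01), Gramd1a (-0.56) and Npc2 (-0.41). With CuO NPs + TTM against controls Gramd1a was higher (0.88), and Gramd1b (-0.56) and Stard3 (-0.43), a late endosomal sterol carrier, were lower.

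**Figure D5:**
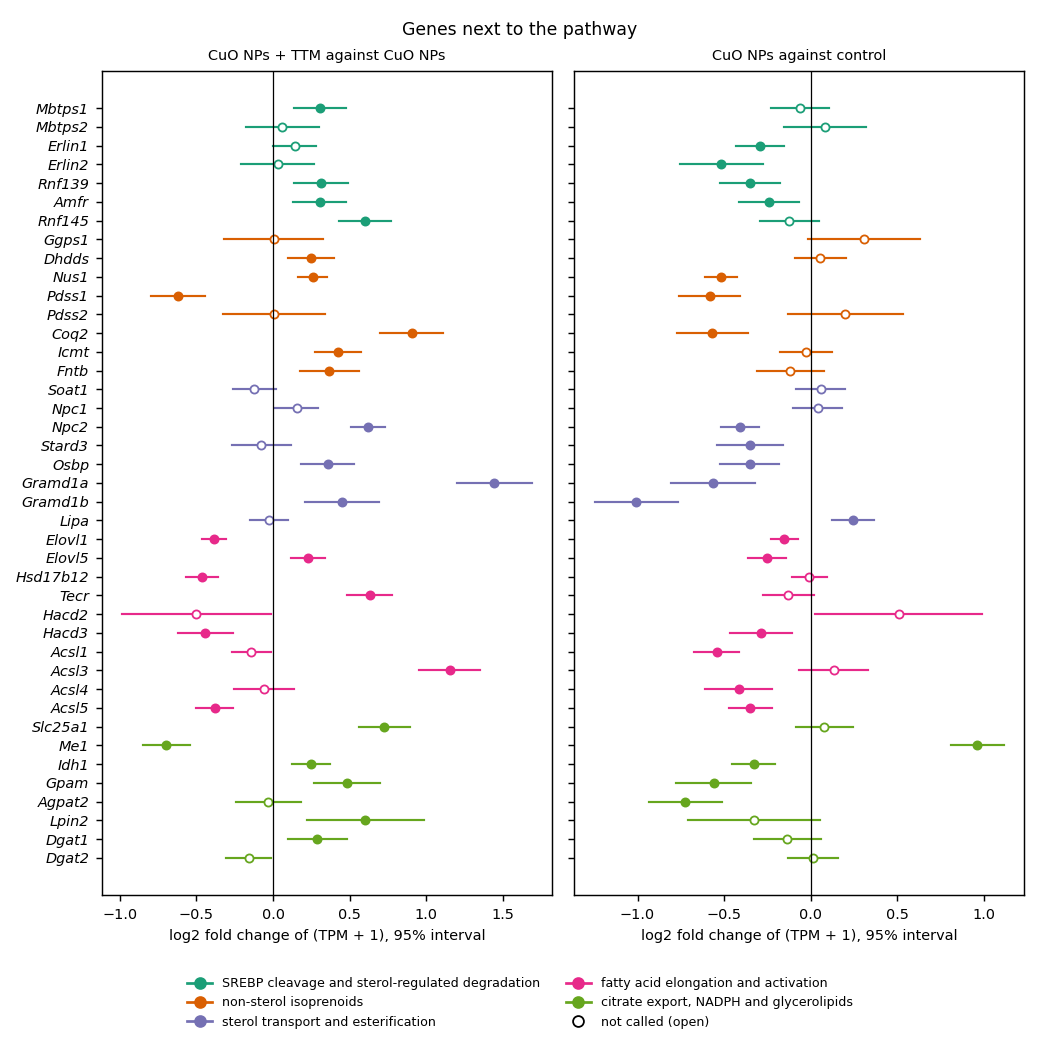
Log2 fold change of (TPM + 1) with its 95% interval for the tested genes next to the pathway, filled where called, with CuO NPs + TTM against CuO NPs at the left and CuO NPs against control at the right. Gramd1a (1.44) and Acsl3 (1.15) lie farthest right in the left panel, and Me1 has -0.70 in the left panel and 0.96 in the right one.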

How the data were processed

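RNA-seq of 9 MH-S libraries, 3 per group, was deposited by the authors as TPM per gene with 2 decimals. The build GRCm39 and the tools HISAT2, fastp, DESeq2 and RSEM are named, per the submitters' processing notes, but versions, roles and the strand setting are not given in the sources used here. TPM keeps no depth, so the depth of each library is unknown. Values were taken as log2(TPM + 1) for genes at 1 TPM or more in at least 3 libraries and fitted over all 9 libraries with limma 3.58.1 in R 4.3.3, with trend and Benjamini-Hochberg adjustment over 12904 genes per comparison. The fit was tested on simulated data. Symbols were found for 52073 of 56980 identifiers. Members and lists were chosen with earlier results of these data known. Every member was described, and of each neighbouring list the 3 genes named had the largest absolute log2 fold change among those called; 1 listed gene is not reported here. Alternatives covered 3 other scalings, 2 pseudocounts, filters, the eBayes trend, 2 groups only, the replicate block and leaving out each library. Promoters came from RefSeq (GRCm38.p6), and overlaps between genes from the exon coordinates of a GENCODE annotation.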

Additional observations from a re-analysis of the deposited data

How the results depend on the processing

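With TTM against CuO NPs, 20 to 24 members were called higher under all settings, and against controls 19 to 20. The share of all genes called higher ran from 15% with no filter to 38.5% with a filter at 5 TPM, and against controls from 11.9% to 30.3%. Members called lower with TTM against CuO NPs numbered 2 with libraries centred on their median gene and 0 with no filter, without a trend in eBayes, with only the 2 groups compared or with the replicate block. The share of all genes called lower was 32.7% with centring and 8.1% to 18.1% under these other settings. With CuO NPs against control, calls were 5 higher and 5 lower with median-of-ratios scaling, 8 higher and 3 lower with centring, and 0 higher with no filter, while the shares of all genes were 19.6% higher and 20.4% lower, 24.3% higher and 16% lower, and 4.85% higher under these 3 settings, near or above the shares of the 29 members. Leaving out 1 library gave 22 to 24 higher and 0 to 1 lower with TTM against CuO NPs, 0 to 1 higher and 7 to 13 lower with CuO NPs against control, and 19 to 20 higher and 1 to 1 lower with CuO NPs + TTM against control. Of all genes, 30.3% to 34.7% were then higher and 15.5% to 18.8% lower in the first comparison. These shares were 9.56% to 12% and 23.9% to 30.7% in the second, and 23.9% to 28% and 24% to 28.8% in the third. Without 1 library the branch difference ranged over 0.32 to 0.42, -0.34 to -0.27 and -0.06 to 0.05 in these comparisons. Uncalled values near 0 changed sign. With centring and TTM against CuO NPs these were Insig2 (-0.1372) and Fasn (-0.0329), and also the called Acly (-0.0087). With centring and CuO NPs against control they were Hmgcs1 (0.0260), Msmo1 (0.0600) and Fasn (0.1155), and also the called Fdps (0.0009). Median-of-ratios scaling turned Insig2 with TTM against CuO NPs (-0.0732) and, with CuO NPs against control, Msmo1 (0.0094) and Fasn (0.0675). Rescaling without mitochondrial genes turned Insig2 (-0.0067). Leaving out 1 library gave ranges across 0 with CuO NPs against control for Acat2 (-0.0282 to 0.0474), Ebp (-0.0255 to 0.0783), Stard4 (-0.0609 to 0.1045), Fads1 (-0.0047 to 0.0763), Acss2 (-0.0079 to 0.1144) and Tm7sf2 (-0.0178 to 0.3852), with TTM against CuO NPs for Insig2 (-0.1524 to 0.2406) and Hsd17b7 (-0.1138 to 0.0155), and with CuO NPs + TTM against control for Ebp (-0.0893 to 0.0256). The cause of these changes was not tested. Same-numbered libraries did not deviate together from their group means (r of -0.127 to 0.010, against -0.037 to 0.099 for different numbers). No pairing by replicate number was thus seen. Deviations within a group of 3 sum to 0, so these r cannot show whether libraries shared a culture or batch. With the block 22 members were higher with TTM against CuO NPs, where 32.7% of all genes were. TPM keeps no sequencing depth, so no counting error can be given.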

Other observations

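Fatty acid elongation and activation was split between genes. Of 10 tested genes, 3 rose and 4 fell with TTM against CuO NPs, where 34.6% of all tested genes rose and 18.5% fell, and the list had a median log2 fold change of -0.26 against 0.12 for all genes. Acsl3, an acyl-CoA synthetase of the endoplasmic reticulum and lipid droplets, had 35.1, 37.3 and 40.2 TPM with CuO NPs + TTM, against 16.2, 16.3 and 16.4 TPM with CuO NPs alone and 16.4, 12.8 and 15.3 TPM in controls, with TTM above all other libraries (1.15, SE 0.089, adjusted p = 1.01e-05). Its relative Acsl5 had 83.1, 79.5 and 76.3 TPM with CuO NPs + TTM, against 109, 105 and 97.9 TPM with CuO NPs alone and 129, 137 and 132 TPM in controls, lowest with TTM. Tecr, which completes each round of elongation, rose by 0.63 on the log2 scale, and Hsd17b12, which acts earlier in each round, fell by 0.46. With nanoparticles alone 0 rose and 6 fell, where 11.8% of all tested genes rose and 30.1% fell, among them Acsl1 (-0.54), Acsl4 (-0.42) and Acsl5 (-0.35, not called with libraries centred on their median gene, -0.17). Against controls, CuO NPs + TTM had Acsl3 higher (1.29) and Acsl5 (-0.73) and Hacd3 (-0.73) lower. Elovl7 reached at most 0.03 TPM and was not tested.

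Citrate and NADPH supply split as well. Slc25a1, which exports citrate from mitochondria for acetyl-CoA, had 92.1, 88.4 and 98.7 TPM with CuO NPs + TTM, against 56.2, 56.7 and 54.5 TPM with CuO NPs alone and 57.3, 54.4 and 47.2 TPM in controls. It overlapped between CuO NPs and controls and was higher with TTM (0.73, SE 0.073, adjusted p = 4.26e-05). Me1, malic enzyme and an NRF2 target that makes NADPH, had 22.4, 21.2 and 23.7 TPM with CuO NPs + TTM, against 37.1, 38.7 and 35.1 TPM with CuO NPs alone and 19.6, 17.9 and 17.9 TPM in controls. It was highest with CuO NPs alone (0.96, SE 0.068, adjusted p = 5.39e-06 against control) and lower with TTM (-0.70, SE 0.068, adjusted p = 3.64e-05). Of the 8 tested genes of this list, 5 rose and 1 fell with TTM against CuO NPs, beside the same shares of all genes. Lpin2, a phosphatidate phosphatase, rose there (0.60, SE 0.170, adjusted p = 0.014) and lost its call without CuO NPs replicate 1 (0.50). Agpat2 and Gpam, acyltransferases of glycerolipid synthesis, fell with CuO NPs alone (-0.72 and -0.56). Against controls, CuO NPs + TTM had Slc25a1 (0.80) and Me1 (0.27) higher and Agpat2 (-0.75) lower. Lpin1, a phosphatase of the same family, was below the level tested, with 0.64, 0.59 and 0.65 TPM with CuO NPs + TTM, against 0.18, 0.14 and 0.21 TPM with CuO NPs alone and 0.14, 0.14 and 0.07 TPM in controls, highest in all 3 TTM libraries.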
